A study of Mus musculus with 4 samples.

Results

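The genes followed here store, move or sense iron, or clear heme, and were measured by RNAseq of 4T1 mammary tumors and of regulatory T cells (Tregs) sorted from such tumors. The 10 genes are *Fth1*, *Ftl1*, *Hmox1*, *Slc40a1*, *Tfrc*, *Slc11a1*, *Slc11a2*, *Cd163*, *Blvrb* and *Ireb2*. They were chosen by name, not by their values, though earlier results of these data were known. In at least 1 set of values a transcript was listed for 8 of the 10, among 10973 genes listed in the whole series. 4T1, a mouse mammary carcinoma line, was grown in the mammary fat pad of syngeneic 8-week-old female Balb/c mice that carry EGFP under the Foxp3 promoter. Mice received Control SMO or LFPRLR SMO, splice modulating oligomers, at 100 pmoles/h for 12 days. The LFPRLR SMO is directed against the long form of the prolactin receptor, and the Control SMO has no target in the mouse. Each treatment gave 1 library of whole tumor and 1 of tumor Tregs, 4 libraries in all, each made from the pooled RNA of 6 mice. The authors sorted the Tregs from a further set of tumors. A pool holds no spread between mice, so every value below is that of a single library, no SD or test can be given, and each ratio describes a pair of libraries.

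Ferritin, built from the heavy chain encoded by *Fth1* and the light chain encoded by *Ftl1*, stores iron inside cells. Iron bound to transferrin enters through the transferrin receptor (*Tfrc*), crosses the membranes of endosomes and phagosomes through *Slc11a2* and *Slc11a1*, and leaves through ferroportin (*Slc40a1*). Macrophages take up hemoglobin bound to haptoglobin through *Cd163* and break down its heme with heme oxygenase (*Hmox1*). *Blvrb* encodes a biliverdin reductase. *Ireb2* encodes an iron regulatory protein, which in iron-poor cells binds iron responsive elements (IREs), short RNA hairpins, blocking translation from a 5′ UTR and protecting a transcript from decay when bound in its 3′ UTR.

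The hairpins are shown because they are what joins storage, export and uptake under 1 control. A hairpin was searched as a C, 5 bases, the loop CAGTGN and 5 bases, with all 5 bases before the loop pairing with those after it (G with T allowed), on the strand of the transcript only. Of the 10 genes, 4 had such a match in a UTR, *Fth1*, *Ftl1* and *Slc40a1* in the 5′ UTR and *Tfrc* 4 times in the 3′ UTR. Among the UTRs of all 21877 protein-coding genes of GENCODE M21, 0.731% had a match, 0.142% in the 5′ UTR and 0.59% in the 3′ UTR. Each line gives 30 bases read 5′ to 3′ on the strand of the gene from GRCm38 (mm10), with the loop in capitals.
Fth1, 5′ UTR, chr19:9982732-9982761, plus strand: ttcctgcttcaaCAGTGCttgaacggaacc
Ftl1, 5′ UTR, chr7:45459778-45459807, minus strand: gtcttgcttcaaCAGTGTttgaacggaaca
Slc40a1, 5′ UTR, chr1:45925464-45925493, minus strand: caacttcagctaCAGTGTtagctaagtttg
Tfrc, 3′ UTR, chr16:32631219-32631248, plus strand: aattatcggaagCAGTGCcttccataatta
Tfrc, 3′ UTR, chr16:32631598-32631627, plus strand: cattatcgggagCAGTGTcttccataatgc
Tfrc, 3′ UTR, chr16:32631663-32631692, plus strand: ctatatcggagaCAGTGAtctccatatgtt
Tfrc, 3′ UTR, chr16:32631710-32631739, plus strand: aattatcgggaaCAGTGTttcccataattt
The ferritin hairpins lay inside the listed *Fth1* and *Ftl1* transcripts of every set of values, and all 4 *Tfrc* hairpins lay inside listed transcripts of both whole tumor libraries. No listed transcript covered the *Slc40a1* hairpin. For the other 6 genes, the absence of a match says only that these letters with full pairing were not in their annotated UTRs.

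The values are FPKM, fragments scaled to transcript length in kilobases and to library size, as deposited for each assembled transcript, and a gene's level is the sum over its transcripts of at least 300 bases. The whole tumor lists held 22481 transcripts of 9571 genes with Control SMO and 31908 transcripts of 9679 genes with LFPRLR SMO. The tumor Treg lists held 4838 transcripts under each treatment label, and all 4838 were equal in exons, coverage, FPKM and TPM under both labels. They were therefore used as 1 set of tumor Treg values, with no comparison between treatments, and which treatment it came from cannot be told apart. In that set none of 20 T cell and Treg markers, *Foxp3*, *Cd4* and *Il2ra* included, had a value above 0, while 19 of 20 macrophage markers did, with a summed FPKM of 523. The set is called tumor Treg values after its label only. *Prlr*, the gene against which the LFPRLR SMO is directed, had no listed transcript in any set, so the labels could not be checked by it. The median gene FPKM was 5.30 and 5.39 in the whole tumor libraries and 3.26 in the tumor Treg values, which came from another program and are set beside the others without a ratio. As tumor is a mixture, fewer cells of a type and less RNA per cell cannot be told apart in any value below.

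The ferritin chains were by far the highest of the 10 genes in every set. *Fth1* (chr19:9980598-9985098, plus strand) was listed as 1 transcript of 4 exons with all 3 annotated introns in each set. Its FPKM was 498 with Control SMO, 276 with LFPRLR SMO and 328 in the tumor Treg values. This put *Fth1* at rank 18 of 9571 genes, 32 of 9679 and 7 of 3155. The Control SMO level was 1.80-fold that with LFPRLR SMO, a log2 ratio of -0.85, and 13.8% of the genes listed in both libraries had a lower ratio. *Ftl1* (chr7:45457944-45459884, minus strand) was level between treatments by this measure, with an FPKM of 93.6 and 93.5, and reached 311 in the tumor Treg values, where it ranked 9. Heavy chain transcripts thus exceeded light chain transcripts 5.32-fold with Control SMO and 2.96-fold with LFPRLR SMO, and were near them, at 1.05-fold, in the tumor Treg values.

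**Figure D1:**
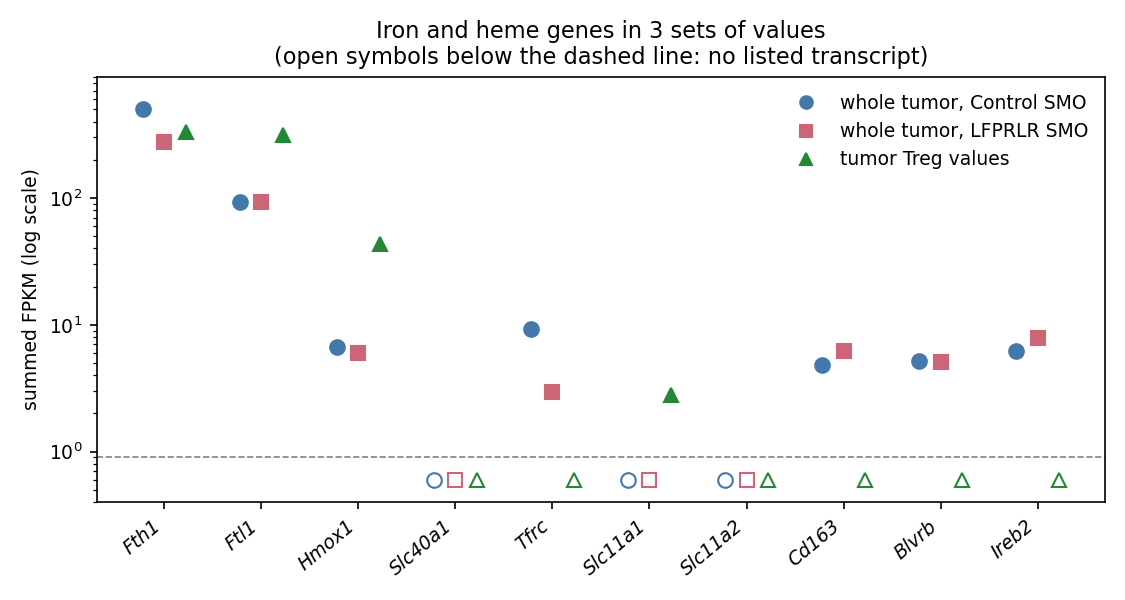
Summed FPKM (vertical axis, log scale) of the 10 genes in whole tumor with Control SMO (circles), whole tumor with LFPRLR SMO (squares) and the tumor Treg values (triangles), each point being 1 pooled library and open symbols below the dashed line marking no listed transcript. *Fth1* lies at 276 to 498 in every set, and *Slc40a1* and *Slc11a2* are listed in none. *Ftl1* and *Hmox1* are plotted highest in the tumor Treg values, which came from another program, so their heights are not compared.

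The assembled length of the ferritin transcripts bears on that ratio. The *Ftl1* transcript was 1304 bases long with Control SMO, 336 of them outside the annotated exons, and 932 bases with LFPRLR SMO, while the *Fth1* transcript was 804 and 946 bases. Since FPKM divides by length, FPKM was multiplied by the length in kilobases to give fragments scaled to library size only (called fragments below), a measure added after the data were seen. For *Ftl1* this gave 122 and then 87.1 with LFPRLR SMO, a log2 ratio of -0.49 in place of 0.00. For *Fth1* it gave 400.4 and 261, a log2 ratio of -0.61. With only annotated exon bases counted, the log2 ratio of *Ftl1* was -0.06 (93.6 and 90.0). For *Fth1* this measure gave the same ratio as fragments, 0.653, and so adds nothing to it. The lower *Ftl1* value by fragments thus rested on the bases outside its annotated exons, while *Fth1* was lower with LFPRLR SMO by FPKM and by fragments. By fragments the ratio of the chains was 3.28 with Control SMO, 3.001 with LFPRLR SMO and 1.02 in the tumor Treg values. The median gene had a log2 ratio of -0.09 by FPKM and -0.14 by fragments. The deposited FPKM of *Fth1* lay above its own 95% bounds in both libraries (347 to 377 and 202 to 225), as did that of *Ftl1* (72.9 to 84.7 and 66.4 to 80.8), so these bounds were not read as errors. Of 14 annotated ferritin pseudogenes and copies, whose reads can be shared with the parent genes, only *Ftl1-ps1* was listed, with an FPKM of 16.6 in the tumor Treg values.

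*Tfrc*, the uptake receptor, gave the lowest ratio by FPKM of the 7 genes listed in both whole tumor libraries. Its FPKM was 9.19 in the Control SMO library and 2.97 in the LFPRLR SMO library, 3.10-fold lower, and the tumor Treg values held no transcript of it. *Tfrc* ranked 2590 of 9571 genes with Control SMO and 7175 of 9679 with LFPRLR SMO. It was the only 1 of the 7 genes listed in whole tumor to be lower with LFPRLR SMO by a factor of 2, and none was higher. Over the 10436 genes that reached an FPKM of 1 in either library, 16.6% were lower and 18.5% higher by that factor (with 0.1 added to both values), so 1 of 7 is close to the background. Among the 8660 of these genes listed in both libraries, 10.5% were lower and 11.3% higher.

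The size of the *Tfrc* difference rested on how the gene was assembled. With Control SMO, *Tfrc* (chr16:32608920-32632794, plus strand) was listed as 5 transcripts with FPKM of 3.08, 2.20, 0.685, 2.15 and 1.08, which overlap only in part and together covered 97.4% of the 4890 bases of the annotated transcript. With LFPRLR SMO it was 1 transcript of 5329 bases and FPKM 2.97, of which 4001 bases lay on the annotated transcript, 81.8% of it, from base 834. Summing FPKM counts a gene once for each piece, and by fragments *Tfrc* was at 18.1 and 15.8, 1.15-fold lower with LFPRLR SMO. With only annotated exon bases counted, *Tfrc* was at 3.56 and 2.63, 1.35-fold lower with LFPRLR SMO. Such a shift between FPKM and fragments was common, and 33.3% of genes listed in both libraries had a ratio that moved by over 1.5 times. Spread over annotated bases, the mean FPKM was 3.81 and 2.07 in the coding sequence and 3.23 and 2.90 in the 3′ UTR, which holds the 4 hairpins. The difference lay mostly in the coding sequence, where the LFPRLR SMO transcript covered 69.8% of bases and the Control SMO transcripts 97.6%.

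**Figure D2:**
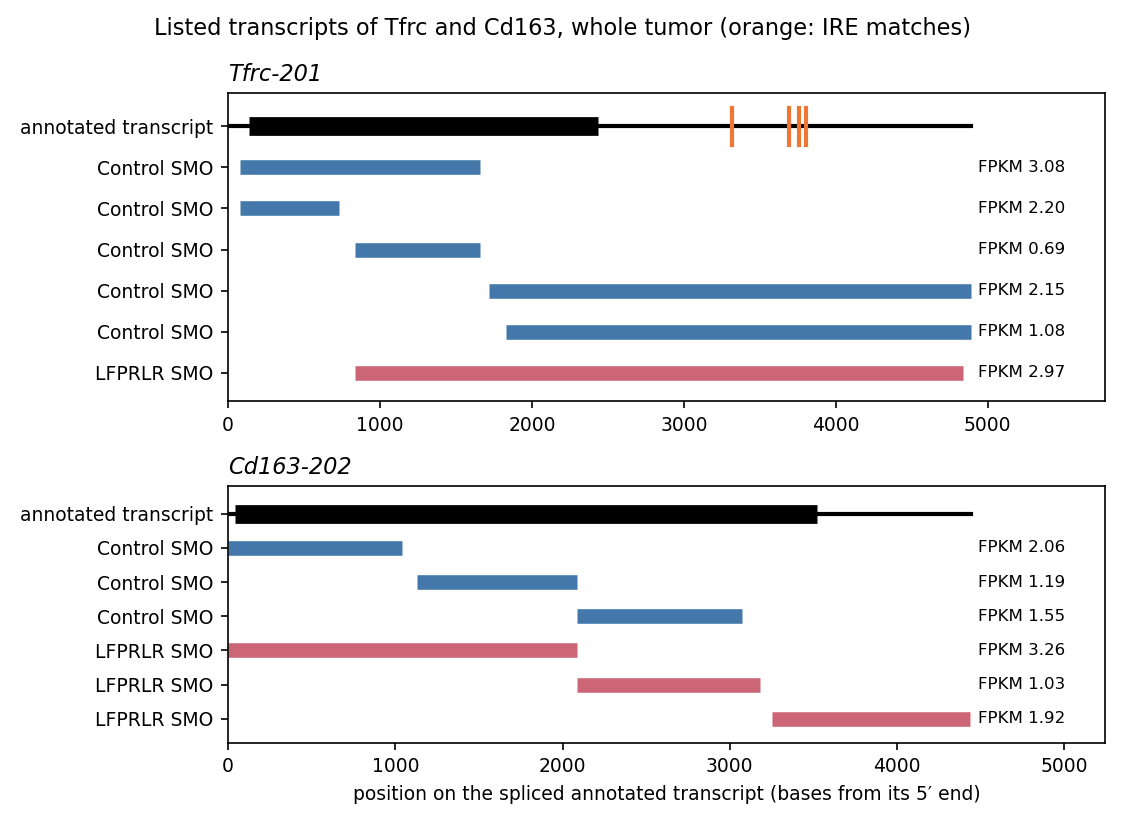
Listed whole tumor transcripts of *Tfrc* (top) and *Cd163* (bottom) laid on the spliced annotated transcript, with position in bases from its 5′ end on the horizontal axis, the coding sequence as a thick black bar, IRE matches in orange, and Control SMO in blue and LFPRLR SMO in red with the FPKM of each. *Tfrc* is 5 pieces in the Control SMO library and 1 in the LFPRLR SMO library, and *Cd163* is 3 pieces in each, of which those with Control SMO stop before the 3′ UTR.

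The other carriers of iron were mostly not listed. *Slc40a1*, the exporter (chr1:45908068-45926523, minus strand), had no transcript in any set. For single transcripts within 20% of its length, the lists reached an FPKM as low as 0.233 (Control SMO) and 0.247 (LFPRLR SMO). The lowest level of a whole gene was higher, at 0.420 and 0.663. *Slc11a2* (chr15:100387898-100425072, minus strand), which moves iron out of endosomes, was not listed either. The only transcript within its span, of FPKM 1.81 with LFPRLR SMO, lay on the opposite strand and belonged to *Gm5475*. *Slc11a1*, the phagosomal transporter of macrophages (chr1:74375195-74386062, plus strand), was listed only in the tumor Treg values, at an FPKM of 2.78 and rank 1909 of 3155. That transcript had 7 exons and covered 58.9% of the annotated 2315 bases, with 6 of 14 introns. Absence from these lists does not show that a gene was silent.

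Among the heme genes, *Hmox1* and *Blvrb* were close between treatments, and *Cd163* was higher with LFPRLR SMO. *Hmox1* (chr8:75093621-75100589, plus strand) was listed as 1 transcript with all 4 annotated introns in each set. Its whole tumor FPKM was 6.68 and 5.97, with deposited 95% bounds of 5.27 to 8.03 and 4.15 to 6.91. Such bounds, here and below, belong to 1 library each and hold no spread between mice. In the tumor Treg values *Hmox1* was at 43.1, rank 74 of 3155, against ranks 3775 and 4373 in whole tumor. *Ftl1* transcripts exceeded *Hmox1* transcripts 14.0-fold and 15.7-fold in whole tumor, and 7.21-fold among the tumor Treg values. *Blvrb* (chr7:27447978-27466144, plus strand) had an FPKM of 5.21 and 5.12 in whole tumor, with bounds of 3.21 to 7.21 and 3.29 to 6.95, and was absent from the tumor Treg values.

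*Cd163*, the hemoglobin scavenger receptor of tissue macrophages (chr6:124304656-124330527, plus strand), was at an FPKM of 4.79 in the Control SMO library and 6.21 in the LFPRLR SMO library, 1.30-fold higher, and was not listed in the tumor Treg values. Each library held 3 pieces of the gene. The pieces with Control SMO had FPKM of 2.06, 1.19 and 1.55 and covered 67.1% of the annotated 4443 bases, with 0% of the 3′ UTR, and those with LFPRLR SMO had FPKM of 3.26, 1.03 and 1.92 and covered 98.2%. Up to base 2087, the Control SMO pieces had bounds of 1.09 to 2.90 and 0.516 to 1.84, and the LFPRLR SMO piece 2.56 to 4.00. The pieces starting at base 2088 went the other way, at 1.55 (Control SMO, bounds 0.842 to 2.24) and 1.03 (LFPRLR SMO, 0.548 to 1.48). By fragments *Cd163* was at 5.13 and 13.1, 2.55-fold higher with LFPRLR SMO. The share of genes listed in both libraries with a lower ratio was 98.7% by fragments but 71.6% by FPKM. Within the coding sequence alone, where coverage was 84.5% and 98.0%, the mean FPKM was 1.36 and 2.39, 1.76-fold higher. By fragments, *Cd163* was thus the 1 of the 7 genes past a factor of 2, higher with LFPRLR SMO, and none was lower. Of the 8660 genes listed in both libraries with an FPKM of at least 1 in either, 2.88% were higher and 4.77% lower on that scale. A measure that weights FPKM by the annotated exon bases covered put *Cd163* at 1.10 and 2.75, again the 1 gene of the 7 past a factor of 2, where 2.09% of the same 8660 genes were higher and 4.53% lower (5.71% and 8.52% with genes listed in 1 library only included).

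**Figure D3:**
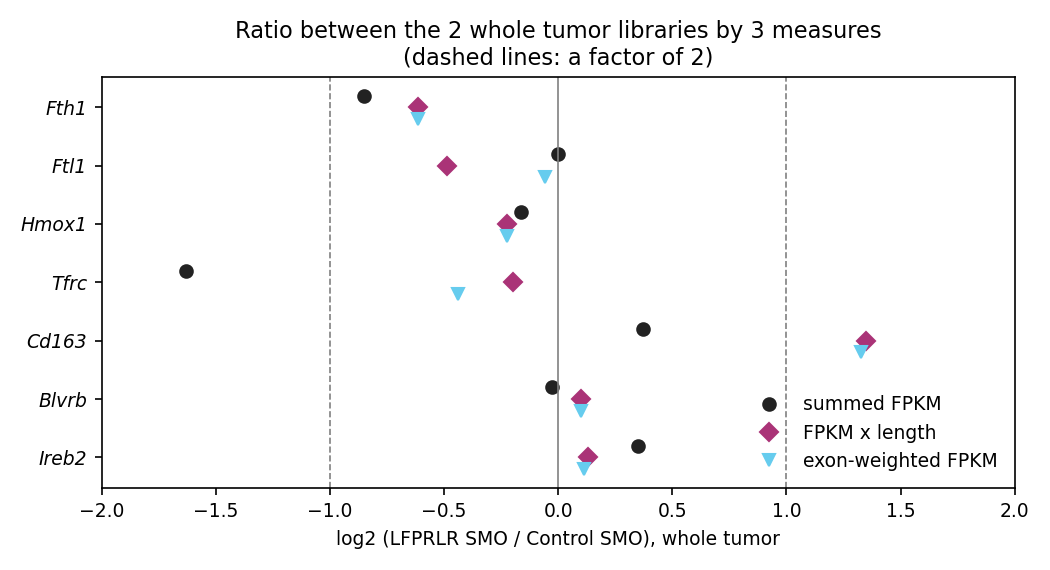
Log2 ratio of LFPRLR SMO to Control SMO in whole tumor (horizontal axis) for the 7 genes listed in both libraries, by summed FPKM (circles), FPKM times length (diamonds) and FPKM weighted by the annotated exon bases covered (triangles), with dashed lines at a factor of 2 and 1 pooled library per treatment. *Tfrc* passes the line by FPKM only, *Cd163* by the other measures only, and *Hmox1*, *Blvrb* and *Ireb2* lie between -0.22 and 0.35 by all.

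Most macrophage markers were lower with LFPRLR SMO, unlike *Cd163*. Of 20 macrophage markers, a list without *Cd163*, 20 were listed in the Control SMO library and 19 in the LFPRLR SMO library, and by FPKM 5 were lower with LFPRLR SMO by a factor of 2 and 0 higher, where 16.6% of all genes were lower. Of the 5, *Ms4a7* was listed with Control SMO only, and by fragments 3 of the 19 markers listed in both libraries were lower by that factor, where 4.77% of all such genes were. By FPKM *Cd14* (2.78 and 3.77), *Trem2* (2.29 and 2.54) and *Itgam* (4.29 and 4.47), named after their values were seen, went the same way as *Cd163*, but by fragments their log2 ratios were -0.40, -0.00 and -1.40. Summed over the 20 markers, FPKM was 685 and 452. The median log2 ratio of the markers was -0.60 by FPKM and -0.61 by fragments, against -0.08 and -0.13 over all genes tested. *Apoe*, the highest marker, was at 206 and 121, and *Ctss*, a lysosomal protease, at 134 and 105. *Cd163* stood at 0.601% of the markers' summed fragments with Control SMO and 2.41% with LFPRLR SMO. By FPKM these shares were 0.699% and 1.37%. *Fth1* was at 46.9% and 48.1% of the markers' sum by fragments but at 72.7% and 61.2% by FPKM, and *Ftl1* at 14.3% and 16.0% by fragments but at 13.7% and 20.7% by FPKM. The part of macrophage content in the ferritin values was not tested.

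*Ireb2*, the iron regulatory gene (chr9:54863789-54912530, plus strand), was at an FPKM of 6.22 and 7.93, a log2 ratio of 0.35, and was not listed in the tumor Treg values. With Control SMO it was 1 transcript of 20 exons with bounds of 5.56 to 6.88. With LFPRLR SMO it was a transcript of 19 exons, FPKM 5.40 and bounds of 4.72 to 6.09, and a single exon of 2999 bases, FPKM 2.53, at the 3′ end. The higher sum with LFPRLR SMO therefore came from the 3′ UTR, where the mean FPKM over annotated bases was 5.70 and 7.82, while in the coding sequence it was 5.98 and 4.89. By fragments *Ireb2* was 33.2 and 36.3, a log2 ratio of 0.13. The direction for *Ireb2* thus depended on which stretch of the transcript was read.

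The wider iron and heme genes showed no common direction. In 7 lists by role with 81 symbols, the 10 genes included, 59 genes were listed at an FPKM of 1 or more in either whole tumor library. By FPKM, 8 of the 59 were higher and 9 lower with LFPRLR SMO by a factor of 2, near the 18.5% and 16.6% of all genes, with a median log2 ratio of -0.13. Of the 17, 8 were listed in 1 library only. Over all genes, 1926 were higher and 1733 lower by that factor, and only 975 and 908 of these were listed in both libraries. By fragments, of the 51 listed in both libraries, *Cd163* alone was higher and *Hfe*, a partner of the transferrin receptor, alone was lower (log2 ratio -1.09), where FPKM gave *Hfe* 2.17 and 2.75. Over all 8660 genes listed in both libraries, 2.88% were higher and 4.77% lower by fragments, so these counts do not exceed the background. *Hfe* was named after its values were seen.

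Of 6 storage genes 5 were listed, with a median log2 ratio of -0.55 by FPKM and -0.49 by fragments, against -0.08 and -0.13 over all genes tested. By FPKM 1 of the 5 was lower by a factor of 2, where 10.5% of all genes listed in both libraries were. By fragments 0 of the 5 were, where 4.77% of all such genes were. *Ftl1* was level by FPKM. The 1 lower by FPKM was *Pcbp1*, a chaperone that delivers iron to ferritin, at an FPKM of 28.2 (Control SMO) and 10.5 (LFPRLR SMO). It was listed at 0 in the tumor Treg values. By fragments the log2 ratio of *Pcbp1* was -0.61.

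Uptake genes other than *Tfrc* went both ways, and 7 of the 14 in that list, *Tfrc* included, were listed. In pairs of values here and below, Control SMO comes first. *Trf*, transferrin itself, was at 31.2 and 18.5 in whole tumor, and at 39.2 among the tumor Treg values, with a log2 ratio by fragments of -0.73. *Lcn2*, which binds iron carriers of bacteria, was at 47.7 and 33.1. Of the ferric reductases, *Steap4* was at 1.60 and 7.20, though its log2 ratio by fragments was 0.53, and *Steap3* was at 1.39 with Control SMO and not listed with LFPRLR SMO. Among 6 export genes only *Cp*, the ferroxidase ceruloplasmin, was listed, at 79.0 and 82.2.

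Of the 12 heme handling genes, 10 were listed in whole tumor, with a median log2 ratio of -0.21 by FPKM and -0.08 by fragments. *Lrp1*, the receptor for heme bound to hemopexin, was at 32.0 and 23.5. *Blvra*, the other biliverdin reductase, at 2.25, and *Abcg2*, an exporter of porphyrins, at 3.44, were listed with Control SMO only. Of the 12 heme synthesis genes, 11 were listed, with medians of 0.30 by FPKM and 0.12 by fragments. *Tmem14c*, a mitochondrial porphyrin transporter, was at 9.04 and 6.57 and the enzyme *Cpox* at 7.96 and 7.04. The enzyme *Ppox* was listed at 2.21 with LFPRLR SMO only and the glycine carrier *Slc25a38* at 1.92 with Control SMO only. Of 14 erythroid markers, *Hbb-b1*, *Hbb-b2* and *Ahsp* were absent from the annotation and could not be listed. *Hbb-bs* alone was listed in whole tumor, at 35.0 with Control SMO and not with LFPRLR SMO, and its part in the heme gene values was not tested.

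**Figure D4:**
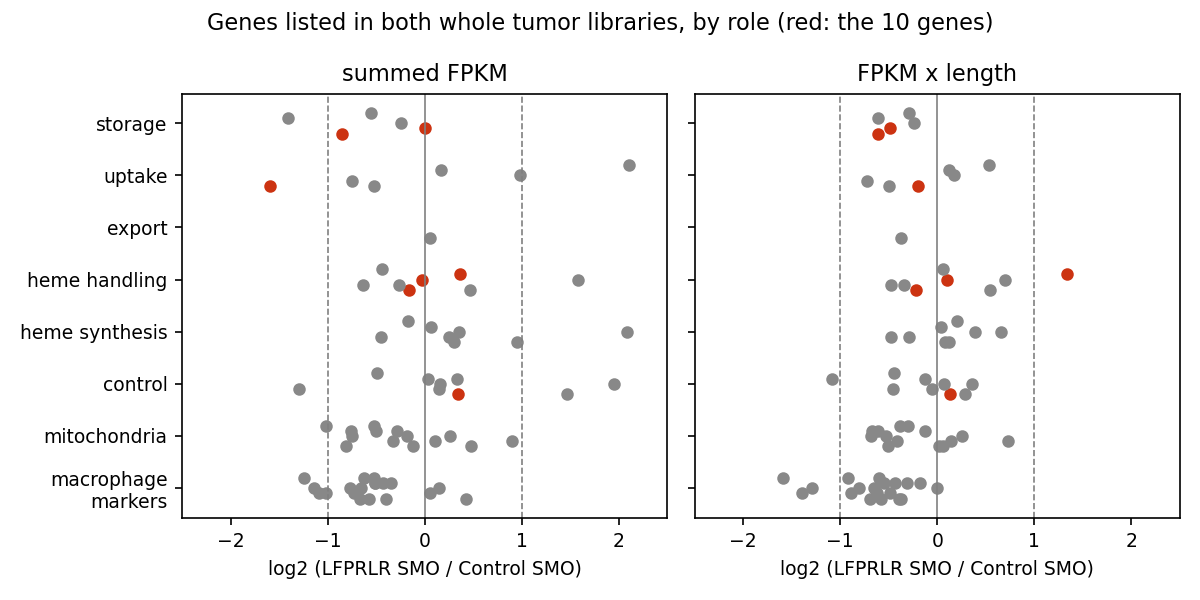
Log2 ratio of LFPRLR SMO to Control SMO (horizontal axes) for every gene listed in both whole tumor libraries in 7 lists by role and in the macrophage markers, by summed FPKM (left) and FPKM times length (right), each point being 1 gene, red for the 10 genes, with dashed lines at a factor of 2. By FPKM 9 iron and heme genes lie past the dashed lines, by FPKM times length 2 do, and the macrophage markers lie mostly below 0 in both panels. Over all genes listed in both libraries, 11.3% were higher and 10.5% lower by FPKM, and 2.88% and 4.77% by FPKM times length.

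Of 13 genes that sense iron or control the others, 9 were listed, with medians of 0.15 by FPKM and -0.05 by fragments. *Fbxl5*, the subunit that marks iron regulatory proteins for breakdown, was at 7.95 and 30.9, and *Keap1*, which holds back the activator of *Hmox1* and ferritin genes, was at 3.44 and 9.66. By fragments their log2 ratios were 0.36 and 0.28. *Hif1a*, which activates *Tfrc* and *Hmox1* in hypoxia, was at 19.9 and 22.2. *Aco1*, the other iron regulatory protein, was at 14.2 and 5.73, with a log2 ratio by fragments of -0.46, and was named after its values were seen.

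Of 18 mitochondrial iron genes, 16 were listed, with medians of -0.30 by FPKM and -0.34 by fragments. The highest were *Bola3* at 9.55 and 10.3 and *Fdx1l* at 10.7 and 8.80, both in iron-sulfur cluster assembly. *Isca2*, at 3.89, was listed with Control SMO only and *Iba57*, at 3.75, with LFPRLR SMO only. Named after their values were seen, since they complete the counts past a factor of 2 by FPKM, are *Flvcr1*, *Abcb10* and *Alas2* (higher with LFPRLR SMO) and *Nfu1* (lower).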

How the data were processed

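RNA of 6 mice per treatment was pooled, depleted of rRNA and sequenced as 1 library. For whole tumor the authors deposited transcripts assembled by Cufflinks on mm10, with FPKM, its 95% bounds and the coverage of each transcript. A score, at most 1000, was deposited too and not used. StringTie 1.2.3 made the tumor Treg lists, for which the authors deposited coverage, FPKM and TPM per transcript, and TPM was used to compare both labels and as an alternative to FPKM for the tumor Treg levels. The submitters' processing notes also name HISAT2 2.0.4 and Cuffdiff 2.0.2. The Cufflinks version and read counts are not given in the sources used here. Each unit of FPKM stood for a mean depth of 1.88 (Control SMO), 1.75 (LFPRLR SMO) and 0.947 (tumor Treg values). No counts were given, so no counting interval can be made.

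Whole tumor transcripts were assigned to GENCODE M21 genes (GRCm38, the same assembly as mm10) by a shared intron or, failing that, 50% of their exon bases, and Treg transcripts by the deposited symbol where it was in the annotation. This left 3815 and 11666 whole tumor transcripts with no gene. FPKM was summed over transcripts of at least 300 bases. Ratios of the 10 genes were taken without a pseudocount, and those of lists and shares with 0.1. Counts used a factor of 2 and genes reaching an FPKM of 1 in either library. Exon-weighted FPKM is FPKM times the annotated exon bases covered, over the longest annotated transcript. FPKM times length, genes listed in both libraries only and coding sequence only were added after the data were seen.

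The 10 genes and all lists were chosen with earlier results of these data known. Named genes were the 10, and in each list the 2 highest in whole tumor and the 2 with the largest ratio. Other marker lists gave summed whole tumor FPKM, Control SMO then LFPRLR SMO, of 360 and 350 (4T1 epithelial), 932 and 967 (fibroblast), 68.4 and 108 (neutrophil), 36.5 and 45.1 (endothelial) and 7.74 and 5.11 (T cell and Treg, *Ikzf2* alone). In the tumor Treg values the sums were 22.0 (epithelial), 24.2 (fibroblast), 113 (neutrophil) and 23.5 (erythroid), and no endothelial marker was listed. The counting was tested on simulated data. Scripts ran in Python 3.11.15 with numpy 2.4.6, and figures were drawn with matplotlib 3.10.9.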

Additional observations from a re-analysis of the deposited data

Results flagged for a closer look

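Within the span of *Ireb2*, 3 single-exon transcripts that were assigned to no gene were listed with LFPRLR SMO and 0 with Control SMO. They were picked out because they lie outside the gene levels compared above. Their FPKM was 1.73 to 3.81 and their length 515 to 1502 bases, and they lay in introns. Over the whole genome, 11479 transcripts of at least 300 bases had no gene with LFPRLR SMO and 3718 with Control SMO.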

How the results depend on the processing

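By summed FPKM, 0 of the 10 genes were higher and 1 lower with LFPRLR SMO by a factor of 2. The higher count became 1 with exon-weighted FPKM and 1 with FPKM times length, *Cd163* in both. The lower count became 0 with exon-weighted FPKM, 0 with FPKM times length and 0 with only the most abundant transcript of each gene. The share of all genes higher was 18.5%, and became 5.71% with exon-weighted FPKM, 11.5% with FPKM times length, 11.5% with transcripts placed by a shared intron only and 11.9% with a factor of 3. The share lower was 16.6%, and became 8.52% with exon-weighted FPKM and 10.3% with a factor of 3. *Tfrc* was listed as 5 pieces in the Control SMO library and 1 in the other, and summing FPKM counts each piece once. *Cd163* had 3 pieces in each library, which covered 67.1% and 98.2% of its annotated transcript. For all genes the cause was not tested, and 33.3% of those listed in both libraries had a ratio that moved by over 1.5 times between FPKM and FPKM times length. The other 37 recomputed counts and shares, 50 medians of lists and 12 tumor Treg levels moved by less than 1.5 times, as did 49 of 56 ratios of single genes. *Tfrc*, the only 1 of the 10 genes past a factor of 2 by FPKM, stayed below 0, but its size did not hold. Its log2 ratio was -0.05 with only the most abundant transcript and -0.20 by FPKM times length. By FPKM times length, 44.2% of genes listed in both libraries had a lower ratio than *Tfrc*. The log2 ratio of *Ireb2* changed sign, from 0.35 to -0.20 with only the most abundant transcript and -0.29 in the coding sequence. Those of *Ftl1* (-0.002) and *Blvrb* (-0.03) became 0.15 and 0.12 with both libraries rescaled to an equal sum of FPKM. *Hfe* was lower by fragments (-1.09) and higher by FPKM (0.33). With 1 library per group no library could be left out. No paired analysis was possible because each treatment has a single library. Depth is unknown in counts, so a difference of a few FPKM cannot be set against counting error.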
